A study of Mus musculus with 16 samples.

Results

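The insulin-like growth factor (IGF) genes described here are the ligand Igf1, its receptor Igf1r and the binding proteins Igfbp2, Igfbp3, Igfbp4, Igfbp5, Igfbp6 and Igfbp7, which makes 8 of the 56941 genes in the deposited table. They were chosen by name as members of the IGF1 axis, with earlier results of these data known. All 8 passed the filter on low counts. They were measured by bulk RNA-sequencing in gingival fibroblasts (mGF), connective tissue cells grown from gum explants, of wild-type (WT) C57Bl6 mice 3 to 6 months old at passages 2 to 8. The 16 libraries fell into 4 conditions of 4 libraries each. These were BSA (control), in which the cells received the albumin carrier alone, 1 ng/mL IL-1β, 200 μM palmitate bound to BSA, and palmitate + IL-1β, which combined these doses. The treatment time of 24 h comes from the figure legends of the study. For other assays these legends describe BSA (vehicle) given with or without IL-1β. The study's text on the sequencing also names BSA (control) with or without IL-1β, while the labels of the libraries used here give IL-1β alone. The labels do not say whether the libraries of a condition came from separate cultures or animals, so p-values measure the spread between these libraries, which may be technical.

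IGF1 is a secreted growth factor that signals through the receptor tyrosine kinase IGF1R to promote growth, survival and matrix synthesis, and fibroblasts are a local source of it. Most IGF1 outside cells is held by IGF-binding proteins, which lengthen its life, keep it from the receptor or release it near the cell surface when proteases cut them. IGFBP7 binds IGF1 only weakly and is named here as a related protein. Palmitate is a saturated fatty acid used in culture to impose metabolic stress, and IL-1β is an inflammatory cytokine that signals through NF-κB.

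On the GRCm39 assembly, Igf1 lies at chr10:87693642-87772904 on the + strand and Igf1r at chr7:67601518-67883416 on the + strand. Igfbp2 at chr1:72863606-72891634 (+ strand) and Igfbp5 at chr1:72897091-72914043 (- strand) are neighbours that meet tail to tail with 5456 bases between them. Igfbp3 lies at chr11:7156086-7164179 (- strand), Igfbp4 at chr11:98932064-98945218 (+ strand), Igfbp6 at chr15:102052697-102057953 (+ strand) and Igfbp7 at chr5:77493130-77555931 (- strand). No exon of the 8 genes overlapped an exon of another gene on the same strand. Of the exon bases of Igfbp7, 13.7% overlapped Polr2b on the other strand, against 6.31% for Igf1r with Pgpep1l and 3.98% for Igfbp3 with unnamed gene models, so the counts of these genes depend on the strand setting of the counting. Transcripts of other genes matched at most 18.1% of the longest transcript of any of the 8 genes, Igfbp7, at 95% identity or more.

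The promoters of 4 genes are shown because Igf1 and Igfbp5 fell with palmitate, Igfbp3 rose with it and Igfbp6 fell with IL-1β. Each is the RefSeq window of 250 bases before to 50 bases after the gene start on GRCm38.p6, written 5′ to 3′ on the strand of the gene, and all 8 genes had such a window. Capitals mark matches, on either strand, to the NF-κB motif (3 G, any 5 bases, then 2 C) or to TATAAA (the TATA box).
Igf1, chr10:87860861-87861160, + strand: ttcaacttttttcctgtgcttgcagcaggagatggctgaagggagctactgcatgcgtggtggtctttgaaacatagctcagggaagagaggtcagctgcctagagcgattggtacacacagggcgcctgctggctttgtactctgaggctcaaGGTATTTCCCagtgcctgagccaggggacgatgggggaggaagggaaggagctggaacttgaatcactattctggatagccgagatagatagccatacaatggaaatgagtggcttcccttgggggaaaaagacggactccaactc
Igfbp5, chr1:72874816-72875115, - strand: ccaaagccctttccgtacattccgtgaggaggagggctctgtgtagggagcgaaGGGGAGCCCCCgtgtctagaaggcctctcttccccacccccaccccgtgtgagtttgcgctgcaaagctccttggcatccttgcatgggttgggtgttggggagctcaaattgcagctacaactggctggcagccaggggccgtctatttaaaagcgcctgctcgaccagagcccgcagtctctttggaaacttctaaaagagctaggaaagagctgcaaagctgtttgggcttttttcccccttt
Igfbp3, chr11:7213874-7214173, - strand: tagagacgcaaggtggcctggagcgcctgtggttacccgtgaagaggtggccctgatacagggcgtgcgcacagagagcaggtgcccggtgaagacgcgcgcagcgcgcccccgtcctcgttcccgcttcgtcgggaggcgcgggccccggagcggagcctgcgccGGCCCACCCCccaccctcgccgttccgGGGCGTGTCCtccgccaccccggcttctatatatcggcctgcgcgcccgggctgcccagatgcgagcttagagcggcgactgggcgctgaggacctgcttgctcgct
Igfbp6, chr15:102143936-102144235, + strand: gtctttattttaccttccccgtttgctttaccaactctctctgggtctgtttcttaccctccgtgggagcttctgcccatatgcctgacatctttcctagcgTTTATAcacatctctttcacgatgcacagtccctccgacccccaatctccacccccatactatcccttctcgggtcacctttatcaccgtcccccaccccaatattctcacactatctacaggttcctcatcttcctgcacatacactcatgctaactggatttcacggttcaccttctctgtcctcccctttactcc
The Igf1 window held a single NF-κB match, which began 96 bases before the gene start. The Igfbp5 window held 2 that overlap each other, 196 and 195 bases before the start, and the Igfbp3 window held 2 that began 84 and 57 bases before it. The Igfbp6 window held none, and its only match was to the TATA box letters, 148 bases before the start. NF-κB letters also stood in the windows of Igfbp2 and Igfbp4, and in 50.8% of all 32851 promoter windows of the same length. TATA box letters were in 13.6% of all windows and, besides Igfbp6, in that of Igfbp4. The letters GGGCGG (Sp1) were in the windows of Igfbp2, Igfbp7 and Igf1r and in 35.7% of all. TTCNNNGAA (STAT), TTGCNNAA (C/EBP) and TGTTTAC (FoxO) matched none of the 9 windows of these genes, against 8.30%, 10.8% and 3.65% of all windows.

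Gene counts ranged from 21234789 to 92752515 between libraries, with a median of 27943964.5. Palmitate replicate 10 had the highest total. The labelled cell type was checked against its markers. The 8 fibroblast markers, Col1a1 and Col3a1 among them, summed to 24197 to 28339 CPM, which are counts scaled to the size of the library, although Lum, a fibroblast proteoglycan, reached only 0.700 to 2.26 CPM. Epithelial markers summed to 0.164 to 0.728 CPM, leukocyte markers to 2.04 to 3.28 CPM, endothelial markers to 1.42 to 2.25 CPM and Schwann cell markers to 1.80 to 2.78 CPM. Markers of mural cells, which fibroblasts share in part, summed to 157 to 199 CPM. The fibroblast sum was 26232 to 27810 CPM in BSA (control) and 24673 to 26735 CPM in palmitate, and its part in the results on the IGF genes was not tested. In bulk RNA, fewer cells of a type and less RNA per cell cannot be told apart.

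Igfbp4 was by far the most abundant of the 8 transcripts for its length. In BSA (control) it reached 498 ± 16.3 CPM per kb of exon (SD, n = 4), rank 26 of 16245 genes. Igfbp2 followed at 84.4 ± 2.32 CPM per kb, rank 211. Igfbp6 stood at 42.7 ± 4.40 CPM per kb, Igfbp5 at 38.5 ± 2.17 CPM per kb and Igfbp7 at 36.9 ± 2.38 CPM per kb, and the libraries of these 3 neighbours overlapped. By this length the ligand came next, with Igf1 at 30.6 ± 1.58 CPM per kb, below all BSA (control) libraries of the binding proteins named so far. With the longest transcript as length, Igf1 was at 41.3 ± 2.14 CPM per kb. Igfbp5, with 6006 bases by either length, stayed at 38.5 CPM per kb, so the place of Igf1 depends on the length used. The receptor Igf1r was at 11.0 ± 1.16 CPM per kb of exon, rank 2357. Igfbp3, the main carrier of IGF1 in blood, was the lowest at 4.21 ± 0.299 CPM per kb, rank 5545, with 386 to 511 counts in each BSA (control) library.

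**Figure D1:**
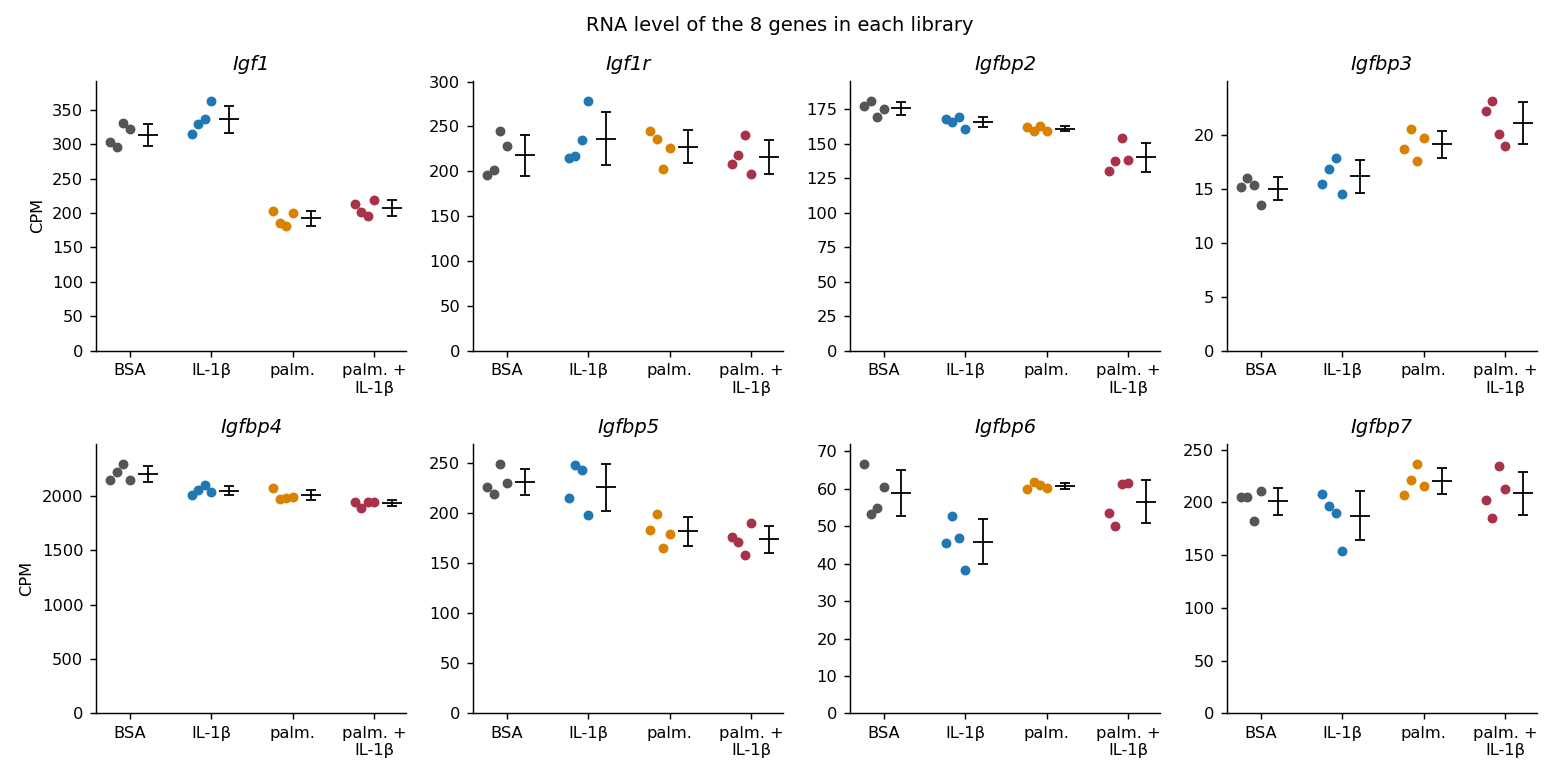
Level of each of the 8 genes in CPM (vertical axes from 0) in the 16 libraries, as 1 point each by condition, with the mean ± SD of 4 libraries beside them in black. Palmitate and palmitate + IL-1β libraries of Igf1 sit between 180.5 and 219 CPM, under the 296 to 363 CPM of the others, while Igf1r spreads over 196 to 278 CPM with no condition apart.

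The ligand fell with palmitate. Igf1 was at 304, 296, 331 and 322 CPM in the BSA (control) libraries and at 202, 186, 180.5 and 200.2 CPM in the palmitate libraries. All palmitate libraries were below all controls. The fitted difference was -0.71 on the log2 scale (SE 0.05, edgeR quasi-likelihood test with Benjamini-Hochberg adjustment, adjusted p = 4.5e-13), a level 38.7% lower with a 95% confidence interval of the fold from 0.571 to 0.659. By p-value it stood at rank 396 of the 16306 genes tested. The receptor Igf1r was at 196, 202, 244 and 228 CPM in BSA (control) and at 245, 236, 202 and 225 CPM in palmitate, with libraries that overlapped. Its difference of 0.06 on the log2 scale had a 95% confidence interval from -0.15 to 0.27, and it did not pass the test (adjusted p = 0.67, edgeR).

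Among the binding proteins, Igfbp5 fell and Igfbp3 rose with palmitate. Igfbp5, which also binds extracellular matrix, was at 227, 219, 249.5 and 231 CPM in BSA (control) and at 184, 199.6, 165 and 179 CPM in palmitate. The highest palmitate library was below the lowest control, and the difference was -0.35 on the log2 scale (SE 0.07, adjusted p = 0.00087, edgeR), or 21.3% lower. Igfbp3 was at 15.1, 16.0, 15.4 and 13.5 CPM in BSA (control) and at 18.7, 20.5, 17.6 and 19.6 CPM in palmitate. Its palmitate libraries were all above the controls, by a fitted 0.36 on the log2 scale (SE 0.08, adjusted p = 0.00029, edgeR), or 27.9% higher.

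The 2 most abundant binding proteins per length moved less. Igfbp4, which holds IGF1 away from its receptor until it is cleaved, was at 2144, 2219, 2294 and 2144 CPM in BSA (control) and at 2071, 1972, 1980 and 1989 CPM in palmitate. It was 8.98% lower in palmitate (log2 -0.14, SE 0.04, adjusted p = 0.0045, edgeR), with no overlap of libraries. Igfbp2, an RGD-bearing binding protein that also contacts integrins, was at 177, 181, 169 and 175 CPM in BSA (control) and at 162, 159, 163 and 159 CPM in palmitate. The ranges were apart by a few CPM, and the difference was -0.13 on the log2 scale (SE 0.04, adjusted p = 0.022, edgeR). That call was lost without BSA (control) replicate 2, palmitate replicate 10 or palmitate replicate 12, where the adjusted p reached 0.061 at most. Igfbp6, which prefers IGF2, differed by 0.04 (95% confidence interval -0.14 to 0.23) and Igfbp7 by 0.13 (-0.05 to 0.32) on the log2 scale, and neither passed the test (edgeR, adjusted p = 0.74 and 0.26). Igfbp7 passed it when only the 8 libraries compared were fitted (adjusted p = 0.046, edgeR).

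In all, 1 of the 8 genes was higher with palmitate and 4 were lower, where 19.8% of all 16306 genes tested were higher and 17.5% lower. With upper-quartile normalization the calls over all genes turned from 3228 higher and 2855 lower to 2402 higher and 4064 lower, as this scaling moved the median of all genes from -0.0030 to -0.072 on the log2 scale. Libraries did not overlap for 5 of the 8, against 36.0% of all genes. The median difference of the 8 was -0.041 on the log2 scale and that of all genes was -0.0030. Of the 8, Igf1 alone passed a test for a change of more than 1.5-fold (edgeR glmTreat, adjusted p = 0.045), beside 966 of all 16306 genes.

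Neither the ligand nor the receptor passed the test with IL-1β alone. Igf1 was at 315, 330, 337 and 363 CPM with IL-1β. Replicates 7 and 8 were above every control and the other 2 overlapped BSA (control). Its difference of 0.10 on the log2 scale (95% confidence interval -0.0013 to 0.20) did not pass the test (adjusted p = 0.19, edgeR). Igf1r was at 214, 218, 235 and 278 CPM, a difference of 0.12 (-0.09 to 0.33, adjusted p = 0.48, edgeR).

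Igfbp6 was the binding protein that fell with IL-1β. It was at 66.7, 53.4, 54.9 and 60.6 CPM in BSA (control) and at 45.4, 52.8, 47.0 and 38.4 CPM with IL-1β. The IL-1β libraries were all below the controls, by a narrow margin. The difference was -0.36 on the log2 scale (SE 0.09, adjusted p = 0.012, edgeR), or 22.1% lower, and it passed the test in each fit that left out a library, at an adjusted p of 0.045 at most. Igfbp4 was at 2006, 2049.6, 2099 and 2030.5 CPM with IL-1β, all below the controls, and did not pass (log2 -0.10, SE 0.04, adjusted p = 0.057, edgeR). It passed with DESeq2 (adjusted p = 0.0075), with upper-quartile normalization, where a count of at least 10 was asked in every library, and without BSA (control) replicate 1 or palmitate + IL-1β replicate 16 (edgeR, adjusted p = 0.0030, 0.023 and 0.046 at the lowest). Igfbp2 was at 168, 166, 169.0 and 161 CPM, also below the controls, the lowest of which was at 169.4 CPM (log2 -0.08, SE 0.04, adjusted p = 0.24, edgeR). It passed with upper-quartile normalization (log2 -0.13, adjusted p = 0.040, edgeR). Igfbp3, Igfbp5 and Igfbp7 differed by 0.11, -0.03 and -0.10 on the log2 scale, with overlapping libraries and adjusted p from 0.40 to 0.82 (edgeR).

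With IL-1β, 0 of the 8 genes were higher and 1 was lower, and among all genes tested 10.1% were higher and 4.97% lower. Upper-quartile normalization turned that balance too, from 1654 higher and 810 lower genes to 1192 and 1551. Libraries were apart for 3 of the 8 and for 17.6% of all genes. An unadjusted p under 0.05 was reached by 2 of the 8 genes, Igfbp4 and Igfbp6, both with lower levels. Igf1, at an unadjusted p of 0.053 (edgeR), stood at rank 4546 of the 16306 genes tested, so such p-values were common. After adjustment, DESeq2 called 2 of the 8 and edgeR with upper-quartile normalization 3. Over all genes these calls were 2516 of 14474 and 2743 of 16306. The median difference was -0.057 on the log2 scale for the 8 and -0.0049 for all genes.

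**Figure D2:**
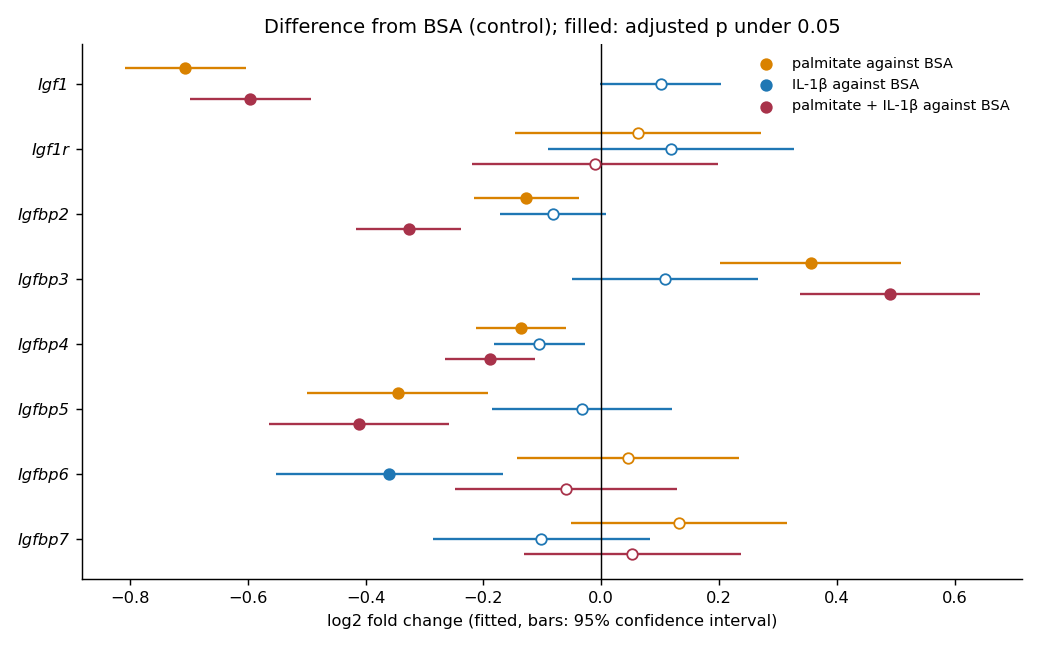
Fitted log2 fold change of each gene against BSA (control) on the horizontal axis, with its 95% confidence interval, for palmitate, IL-1β and palmitate + IL-1β. Filled points passed an adjusted p of 0.05, which Igf1, Igfbp2, Igfbp3, Igfbp4 and Igfbp5 did with palmitate and palmitate + IL-1β, and Igfbp6 with IL-1β alone.

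In palmitate + IL-1β, the genes that passed the test against BSA (control) were Igf1, Igfbp2, Igfbp3, Igfbp4 and Igfbp5. Igf1 was at 214, 201, 195 and 219 CPM, all below the controls, and 33.8% lower by the fit (log2 -0.60, SE 0.05, adjusted p = 1.6e-11, edgeR). Igfbp3 was at 22.1, 23.1, 20.0 and 18.9 CPM, all above the controls, and 40.5% higher (log2 0.49, SE 0.07, adjusted p = 2.0e-06, edgeR). Igfbp5 was at 176, 171, 158 and 191 CPM, all below the controls (log2 -0.41, SE 0.07, adjusted p = 0.00012, edgeR).

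Igfbp2 was at 130.3, 137, 154 and 138 CPM with both agents, and 20.3% lower than in BSA (control) (log2 -0.33, SE 0.04, adjusted p = 2.2e-07, edgeR). Replicate 15 was the highest of these, and all 4 were below every library of the other conditions. Igfbp4 was at 1940, 1889, 1947 and 1945 CPM, again below each library of the other conditions (log2 -0.19, SE 0.04 against BSA (control), adjusted p = 1.0e-04, edgeR). Igf1r, Igfbp6 and Igfbp7 did not pass, with differences of -0.01, -0.06 and 0.05 on the log2 scale and adjusted p from 0.62 to 0.94 (edgeR). The count was 1 higher and 4 lower of 8, beside 24.8% and 22.5% of all genes tested (4041 and 3664 genes, or 3115 and 4938 with upper-quartile normalization), and the libraries of 5 of the 8 were apart from BSA (control), beside 41.5% of all genes. The median difference was -0.12 for the 8 and 0.0017 for all genes on the log2 scale. These 3 comparisons share the BSA (control) libraries.

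Set against IL-1β alone, adding palmitate gave an Igf1 difference of -0.70 on the log2 scale (SE 0.05, adjusted p = 8.6e-13, edgeR). Igfbp5 was lower by 23.1% and Igfbp2 by 15.6%, and Igfbp3 was higher by 30.3% (edgeR, adjusted p = 0.00043, 4.0e-05 and 0.00013). Igfbp6 was at 53.4, 50.2, 61.2 and 61.6 CPM with both agents, higher than with IL-1β alone by 0.30 on the log2 scale (SE 0.09, adjusted p = 0.016, edgeR). Its libraries overlapped those of IL-1β, and the call was lost without palmitate + IL-1β replicate 15 or 16, at an adjusted p of 0.060 at most (edgeR). Igfbp4 differed by -0.08 on the log2 scale with libraries apart and did not pass (adjusted p = 0.081, edgeR). It passed with DESeq2 (adjusted p = 0.012), and in edgeR with upper-quartile normalization, with 10 counts in every library and without mitochondrial genes (adjusted p = 0.010, 0.037 and 0.046), where 6 of the 8 genes were called in place of 5. Over all genes, DESeq2 called 5422 of 18171, and those edgeR settings in turn 5788 of 16306, 5338 of 13554 and 5697 of 16280. In this comparison 2 of the 8 genes were higher and 3 lower, and 18.9% and 16.1% of all genes.

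Set against palmitate alone, adding IL-1β gave 1 call among the 8. Igfbp2 was 12.9% lower (log2 -0.20, SE 0.04, adjusted p = 0.0024, edgeR), with no overlap of libraries. Igf1 differed by 0.11 on the log2 scale (95% confidence interval 0.0070 to 0.21, adjusted p = 0.19, edgeR). The other 6 genes differed by -0.10 to 0.13 on the log2 scale with adjusted p of 0.28 or more (edgeR). Of all genes tested, 5.71% were higher and 4.10% lower.

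Between the single agents, Igf1 was 42.8% lower with palmitate than with IL-1β (log2 -0.81, SE 0.05, adjusted p = 3.4e-14, edgeR). Igfbp6 was higher with palmitate, at 59.8, 61.7, 61.1 and 60.4 CPM, all above the IL-1β libraries (log2 0.40, SE 0.09, adjusted p = 0.0025, edgeR). Igfbp5 was 19.5% lower and Igfbp3 18.7% higher (edgeR, adjusted p = 0.0028 and 0.012), both with a slight overlap of libraries. The Igfbp3 call was lost without IL-1β replicate 8 or palmitate replicate 10, where the adjusted p was 0.075 at most (edgeR). Igfbp7 differed by 0.23 (SE 0.09, adjusted p = 0.051, edgeR) and was called by DESeq2 (adjusted p = 0.021), without a filter on low counts (edgeR, adjusted p = 0.010) and in 5 of the 16 fits that left out a library. The calls were 2 higher and 2 lower of the 8, beside 16.5% and 15.2% of all genes.

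Whether the agents together departed from the sum of their single effects was tested as an interaction, which 1.99% of all genes passed and 0 of the 8 did. None of the 8 reached an unadjusted p under 0.05 in edgeR with TMM and the filter on low counts. With upper-quartile normalization or no filter 1 did, and in DESeq2 2 did, with no call after adjustment in any of these fits. Over all genes, upper-quartile normalization called 285 of 16306 after adjustment, no filter 413 of 38131 and DESeq2 366 of 16692. With TMM and the filter, Igfbp6 at an unadjusted p of 0.062 (edgeR) stood only at rank 1915 of the 16306 genes tested. The interaction of Igf1 was 0.0091 on the log2 scale, with a 95% confidence interval from -0.14 to 0.15. The lowest adjusted p belonged to Igfbp6, with an interaction of 0.26 (95% confidence interval -0.01 to 0.52, adjusted p = 0.53, edgeR). For Igfbp2 the interaction was -0.12 (-0.24 to 0.0087, adjusted p = 0.55, edgeR).

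The level of binding protein RNA per ligand RNA differed between conditions. The 6 binding proteins summed to 704 ± 11.3 CPM per kb in BSA (control) and 652 ± 18.3 with IL-1β, and to 650.3 ± 8.78 with palmitate and 618 ± 15.7 with both agents (SD, n = 4 each). Divided by Igf1, this gave 23.0 ± 1.12 in BSA (control) and 34.7 ± 1.74 in palmitate. The ratio was 19.9 ± 1.46 in IL-1β and 30.6 ± 1.87 in palmitate + IL-1β. Igf1 itself was at 30.6 ± 1.58 CPM per kb in BSA (control) and 32.8 ± 1.96 in IL-1β. It was at 18.8 ± 1.06 in palmitate and 20.3 ± 1.10 in palmitate + IL-1β. As the sum was also lower with palmitate, the higher ratio restates the fall of Igf1. The sum includes Igfbp7, which binds IGF1 only weakly. All libraries with palmitate were above all without it, from 29.2 upwards against at most 24.4, in a score made of the chosen genes that was given no test. Igfbp4 made up 69.6% to 70.96% of the summed binding protein level in the 4 conditions. The share of Igfbp3 was 0.597%, 0.692%, 0.823% and 0.957% in BSA (control), IL-1β, palmitate and palmitate + IL-1β respectively, and that of Igfbp5 was 5.47%, 5.76%, 4.66% and 4.69%.

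**Figure D3:**
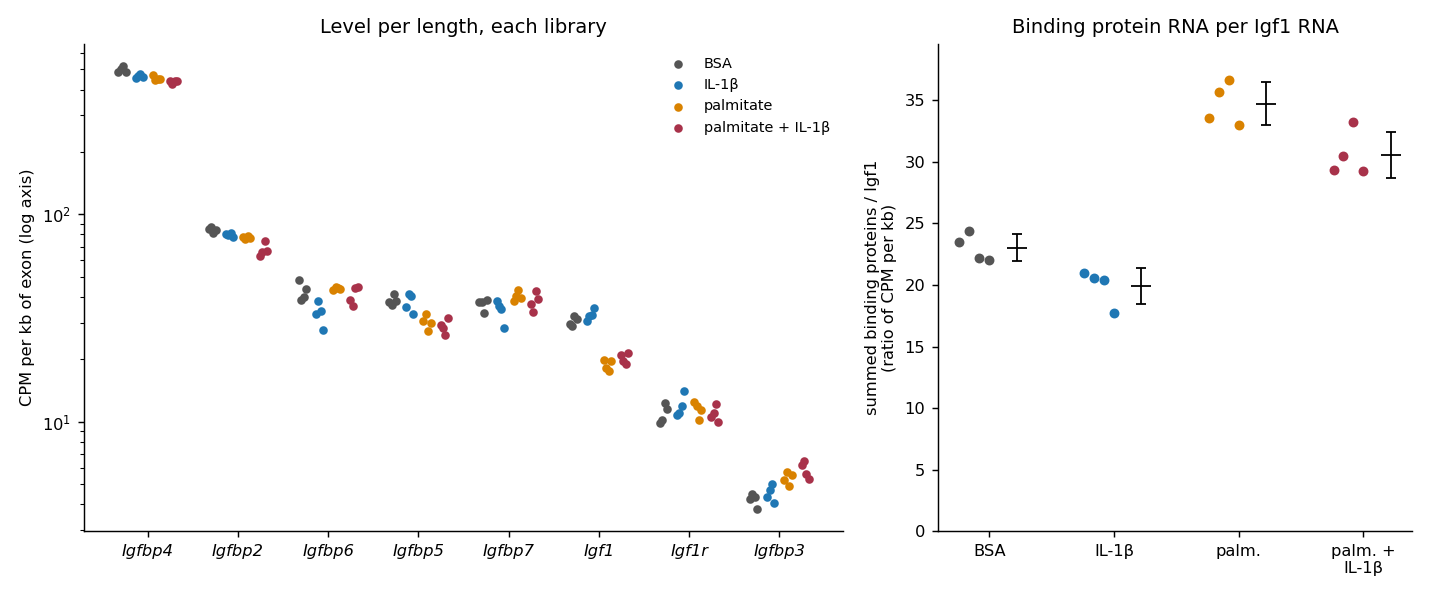
Left, CPM per kb of exon on a log axis for the 8 genes in each library, ordered by their level in BSA (control). Right, the summed level of the 6 binding proteins divided by that of Igf1, as 1 point for each library with the mean ± SD of 4 beside it, where the palmitate libraries lie between 33.0 and 36.6 and the BSA (control) libraries between 22.1 and 24.4.

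Other members of the axis were taken from 4 lists. Of 9 further ligands, receptors and carriers, only the receptors Igf2r and Insr had enough counts to be tested. Igf2, the second IGF ligand, had 0 to 4 counts in each library, and Igfbp1 0 to 2. Insrr had 0 to 5 counts, Igfbpl1 0 to 3 and Igfals, which joins IGFBP3 in its blood complex, 0 to 11. The insulin genes Ins1 and Ins2 had no counts, where a count of 0 allows up to 0.0323 to 0.141 CPM at the depths of these libraries. Igf2r, which clears IGF2 and sorts lysosomal enzymes, had 643 ± 40.9 CPM in BSA (control) and 804 ± 73.2 CPM in IL-1β (SD, n = 4; log2 0.32, SE 0.07, adjusted p = 0.0057, edgeR). Its palmitate call (log2 0.20, SE 0.07, adjusted p = 0.045, edgeR) rested on overlapping libraries and was lost with upper-quartile normalization and in 8 of the 16 fits that left out a library. Insr, the insulin receptor, differed by 0.22 with IL-1β (adjusted p = 0.042, edgeR), a call lost in 7 of those fits, and by 0.11 with palmitate (adjusted p = 0.23, edgeR).

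Of the 11 proteases that cut binding proteins and the inhibitors of such proteases, 4 were higher and 3 lower with palmitate, beside 19.8% and 17.5% of all genes. Their median difference was 0.052 on the log2 scale. Mmp3, stromelysin, a matrix protease that cuts IGFBP3, rose from 8.64 ± 0.812 to 46.0 ± 1.92 CPM (SD, n = 4; log2 2.42, SE 0.07, adjusted p = 4.2e-23, edgeR). C1s1, the complement protease C1s, rose by 0.74 and Stc2, a stanniocalcin that inhibits PAPP-A, by 0.48 on the log2 scale (edgeR, adjusted p = 8.0e-14 and 5.2e-05). Htra3, a serine protease, fell from 14.7 ± 0.341 to 6.13 ± 0.323 CPM (log2 -1.27, SE 0.08, adjusted p = 1.2e-14, edgeR). Pappa2, which cuts IGFBP3 and IGFBP5, was lower (log2 -0.47, adjusted p = 0.00013, edgeR). Stc1, the other stanniocalcin, had overlapping libraries and a call (log2 -0.34, adjusted p = 0.0496, edgeR) that was lost in 9 of the 16 fits that left out a library. With IL-1β, 2 of the 11 were higher and 0 lower, beside 10.1% and 4.97% of all genes. These were Stc2 (log2 0.53) and Mmp3 (log2 0.30), at adjusted p = 7.5e-05 and 0.0083 (edgeR), and the Mmp3 call was lost in 1 fit that left out a library. With both agents 3 were higher and 4 lower, beside 24.8% and 22.5% of all genes.

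Of 25 genes of receptor signalling, 11 were higher and 9 lower with palmitate, beside 19.8% and 17.5% of all genes, and their median difference was -0.046 on the log2 scale. Pik3r1, the main regulatory subunit of PI3-kinase, rose from 171 ± 3.67 to 413 ± 13.0 CPM (SD, n = 4; log2 1.27, SE 0.04, adjusted p = 2.8e-21, edgeR). Foxo3, a transcription factor that AKT keeps out of the nucleus, rose by 0.99 and Ptpn1, a phosphatase that acts on the insulin receptor, by 0.63 on the log2 scale (edgeR, adjusted p = 1.1e-17 and 1.1e-12). The docking proteins that carry the signal from the receptor were lower, with Irs1 at 79.8 ± 5.49 CPM without and 50.03 ± 4.62 CPM with palmitate (log2 -0.67, adjusted p = 2.6e-09, edgeR) and Irs2 at 45.4 ± 1.42 and 31.7 ± 1.40 CPM (log2 -0.52, adjusted p = 5.8e-10, edgeR). Grb14, an adaptor that restrains the insulin receptor, was lower by a log2 of -0.53 (adjusted p = 7.9e-05, edgeR). With IL-1β, 6 were higher and 2 lower, beside 10.1% and 4.97% of all genes. Pik3r1 rose by 0.50, Pik3cb, a catalytic subunit of PI3-kinase, by 0.42 and Rictor, a subunit of an mTOR complex, by 0.24 on the log2 scale (edgeR, adjusted p = 2.0e-10, 0.00026 and 0.0054). The kinases Akt1 and Akt2 differed by -0.14 and -0.13 (edgeR, adjusted p = 0.035 and 0.029), calls that were lost in 3 and 5 of the 16 fits without a library. With both agents 12 were higher and 11 lower, beside 24.8% and 22.5% of all genes.

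Of 7 genes of the growth hormone axis, through which growth hormone induces Igf1 in liver, 4 were higher and 2 lower with palmitate, beside 19.8% and 17.5% of all genes, and the median difference was 0.28 on the log2 scale. The feedback inhibitor Socs3 rose from 4.71 ± 0.445 to 20.9 ± 2.27 CPM (SD, n = 4; log2 2.16, SE 0.10, adjusted p = 8.6e-18, edgeR). Cish, another inhibitor of the pathway, rose by 1.13 and the receptor's kinase Jak2 by 1.06 on the log2 scale (edgeR, adjusted p = 3.7e-07 and 1.4e-19). Socs2, an inhibitor whose loss makes mice grow large, was lower (log2 -0.59, adjusted p = 7.6e-07, edgeR). The receptor Ghr had 126 ± 9.70 CPM in BSA (control) and 113 ± 3.45 CPM in palmitate (log2 -0.16, adjusted p = 0.012, edgeR), with libraries that overlapped and a call lost in 2 of the 16 fits without a library. With IL-1β, Cish (log2 0.51, adjusted p = 0.036, edgeR) and Jak2 (log2 0.20, adjusted p = 0.0011, edgeR) were higher and none was lower, beside 10.1% and 4.97% of all genes, and the Cish call was lost in 4 of those fits. With both agents 4 were higher and 2 lower, beside 24.8% and 22.5% of all genes.

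**Figure D4:**
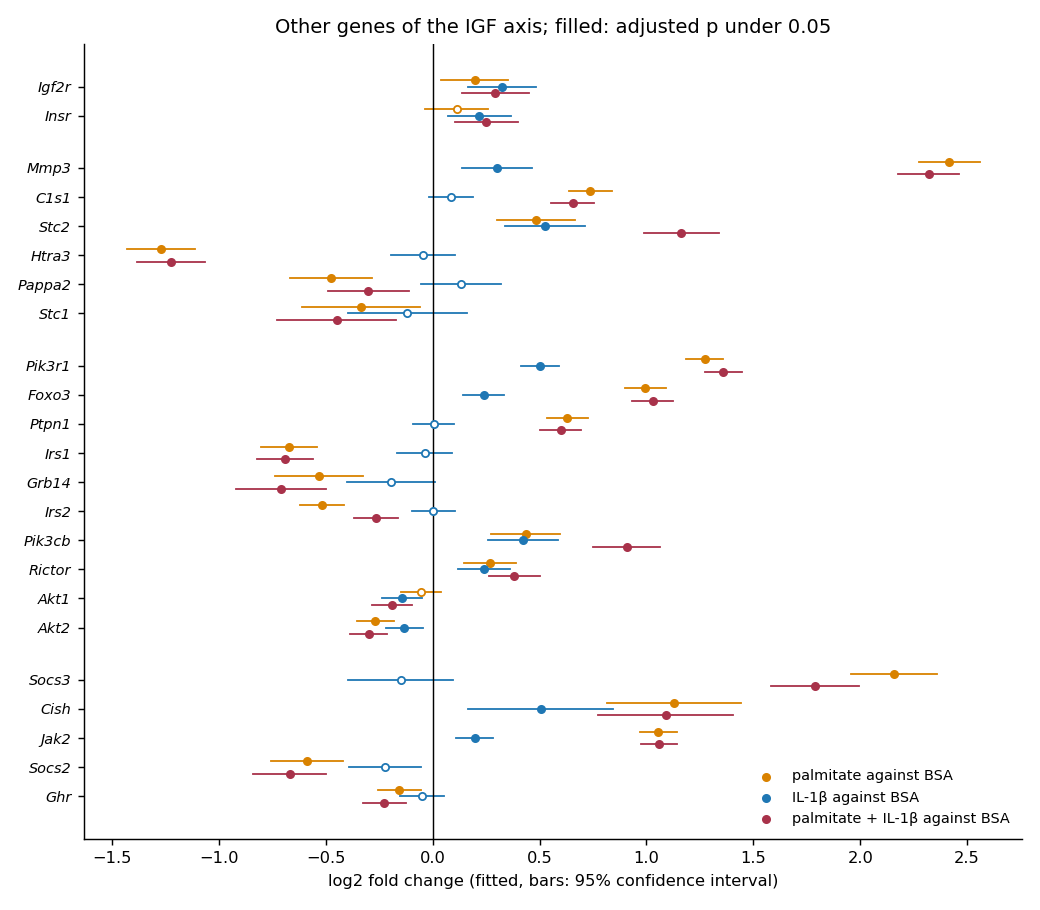
Fitted log2 fold change against BSA (control), with its 95% confidence interval, for the named genes of the 4 lists in palmitate, IL-1β and palmitate + IL-1β. The blocks from top to bottom are receptors, proteases and their inhibitors, receptor signalling and the growth hormone axis. Filled points passed an adjusted p of 0.05, and Mmp3 at 2.42 and Socs3 at 2.16 lie farthest to the right in palmitate, Htra3 at -1.27 farthest to the left.

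The genes whose pattern was most like that of Igf1 were Pde3b, a phosphodiesterase of cyclic nucleotides, and Flrt3, a membrane adhesion protein. Likeness was the root mean square difference of log2 CPM, each gene centred on its own mean, over the 16 libraries and 11827 genes. It was 0.0675 for Pde3b and 0.0777 for Flrt3, where Igf1 itself varied by 0.361 about its mean and the median over all genes was 0.387. Pde3b had 58.4 ± 4.29 CPM in BSA (control) and 62.4 ± 2.57 with IL-1β, against 33.3 ± 1.23 with palmitate and 37.7 ± 2.32 with both agents (SD, n = 4). Flrt3 had 35.9, 39.7, 21.5 and 22.2 CPM in the same order. These genes were picked for their likeness, and their levels are a description.

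**Figure D5:**
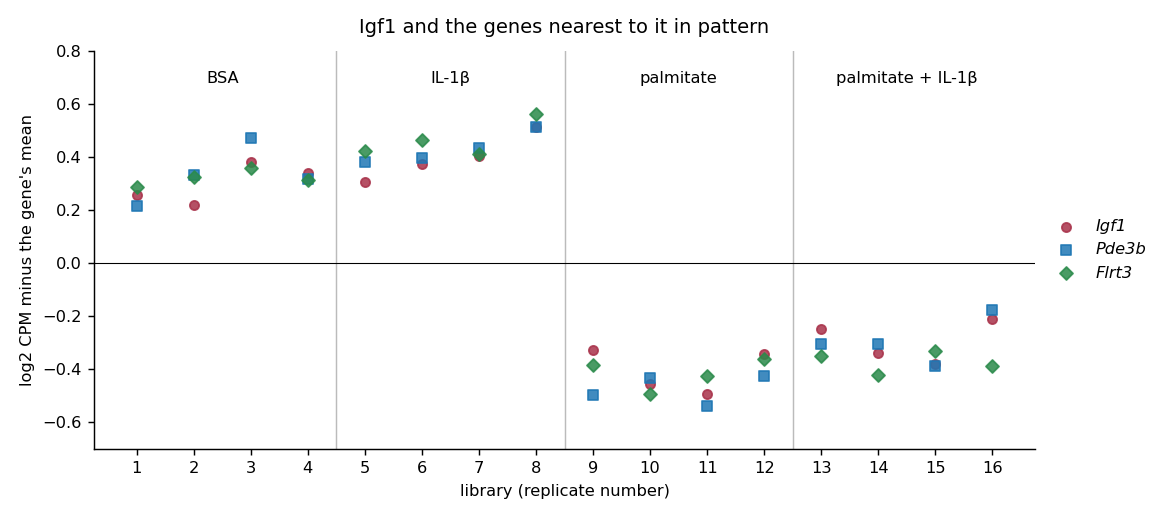
Log2 CPM minus the mean of each gene (vertical axis) for Igf1, Pde3b and Flrt3 in each of the 16 libraries, grouped by condition. All 3 genes are above 0 in the BSA (control) and IL-1β libraries and below 0 in each library with palmitate.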

How the data were processed

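Bulk RNA of 16 mGF libraries was analysed, with conditions taken from the labels. After trimming (Trimmomatic 0.39) and alignment to GRCm39 (STAR 2.7.10a), the authors deposited raw counts per GENCODE gene from HTSeq 2.0.9, counted by strand as the name of the table says. The library kit was a stranded one for total RNA by the labels and oligo(dT)-primed by the methods. Summary rows that name no gene, 18.3% to 21.4% of each library, were left out.

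All libraries entered a single edgeR 4.0.16 quasi-likelihood fit (R 4.3.3, TMM, filterByExpr with a minimum count of 10 and total of 15, 16306 genes), with 1 mean for each condition and without covariates. A gene was called at a Benjamini-Hochberg adjusted p under 0.05 over all genes tested. CPM used TMM-scaled sizes, and CPM per kb used merged exons of GENCODE vM39. The floor is 3 counts, and intervals and floors leave PCR duplication uncovered, since no molecular tags are described. The step was tested on simulated counts with the same spread for all genes. Far fewer genes were changed there, with palmitate only, than were called here, so it does not cover the scaling when many genes change. Alternatives were DESeq2 1.42.0, other scaling and filters, no mitochondrial genes, only the libraries compared, glmTreat at 1.5-fold, the longest transcript as length, and leaving out each library.

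The genes and lists were chosen with earlier results of these data known. Named list genes are up to 3 of the largest rises and falls past the threshold in palmitate and in IL-1β. The 2 genes most like Igf1, the member with the largest difference, were also named.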

Additional observations from a re-analysis of the deposited data

Results flagged for a closer look

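In 2 of 32 sets of 4 libraries, 1 for each gene and condition, a library stood apart from the other 3 by Dixon's test, which chance gives in about 1 of 20. Both concerned Igfbp4. Palmitate replicate 9 was at 2071 CPM beside 1972, 1980 and 1989 CPM, a gap of 0.831 of the range, and palmitate + IL-1β replicate 14 was at 1889 CPM beside 1940, 1945 and 1947 CPM, a gap of 0.875 of the range.

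The difference with palmitate was not the same with and without IL-1β for 2 of the listed genes of the axis, tested as the interaction in edgeR. For Mmp3, the protease that cuts IGFBP3, it was 2.42 on the log2 scale without IL-1β and 2.02 with it, an interaction of -0.40 (SE 0.10, adjusted p = 0.024, edgeR). For Pik3r1, the regulatory subunit of PI3-kinase, it was 1.27 and 0.86, an interaction of -0.41 (SE 0.06, adjusted p = 2.5e-05, edgeR). Thus 1 of 11 proteases and inhibitors and 1 of 25 receptor signalling genes passed. In the lists of receptors and of the growth hormone axis, 0 of 2 and 0 of 7 tested genes passed, beside 1.99% of all genes.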

How the results depend on the processing

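Palmitate calls of Igf1, Igfbp3, Igfbp4 and Igfbp5 against BSA (control) held under each alternative except the 1.5-fold test, which only Igf1 passed. That test called 1 of the 8 genes in palmitate against BSA (control) and in palmitate against IL-1β. Of all 16306 genes it called 966 and 591 there. It called 0 of the 8 with IL-1β or palmitate + IL-1β against BSA (control), beside 134 and 1311 of all genes. With palmitate + IL-1β against IL-1β or against palmitate it also called 0 of the 8, beside 705 and 36 of all genes. In these comparisons without a call, its unadjusted p was under 0.05 for 1 gene, Igf1, in palmitate + IL-1β against IL-1β, and for 0 in the others. With IL-1β against BSA (control), the count of 1 became 2 in DESeq2, 3 with upper-quartile normalization, 2 with 10 counts in every library, and 1 to 2 when a library was left out. Over all genes, DESeq2 called 2516 of 14474, upper-quartile normalization 2743 of 16306 and the filter of 10 counts 2474 of 13554. Fits that left out a library called 1784 to 2648 genes. The causes were not tested.

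All 32 changes of sign were in values past the threshold in neither fit. Upper-quartile normalization gave -0.0066 for Igf1r and -0.024 for Igfbp6 in palmitate, -0.026 for Igfbp7 in palmitate + IL-1β and 0.0042 for the interaction of Igfbp5 (log2), while it moved the median of all genes to -0.072 with palmitate, -0.077 with both agents and 0.035 for the interaction. Leaving out a library gave, on the log2 scale, -0.0093 to 0.10 for Igfbp6 in palmitate, -0.079 to 0.025 for Igfbp5 in IL-1β, -0.074 to 0.050 for Igf1r and -0.0060 to 0.096 for Igfbp7 in palmitate + IL-1β, and -0.10 to 0.031 for Igf1r between palmitate and IL-1β. Interactions ranged from -0.020 to 0.048 for Igf1, -0.021 to 0.079 for Igfbp3, -0.090 to 0.018 for Igfbp5 and -0.059 to 0.077 for Igfbp7.

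With the longest transcript as length, binding proteins per Igf1 were 19.9 and 17.2 in BSA (control) and IL-1β, and 29.9 and 26.3 in palmitate and palmitate + IL-1β. No paired analysis was made, because the conditions share no replicate numbers. The labels do not say whether cultures were matched between conditions.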
